A study of Homo sapiens with 4 samples.

Results

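NF-kB genes were examined for occupancy by BCL6 in SUDHL5, an established cell line of diffuse large B-cell lymphoma (DLBCL). The set held 10 of the 19974 protein-coding genes of the autosomes and chromosome X. It was chosen by name, with earlier results of these data known. It comprised the 5 subunits NFKB1, NFKB2, REL, RELA and RELB and the upstream adaptor TRAF3. The other 4, NFKBIA, NFKBIE, NFKBIZ and TNFAIP3, were grouped here as feedback inhibitors. This grouping is a label for the comparison, and what each gene does in these cells was not measured. Every BCL6 peak whose summit lay in a gene or within 50 kb of either annotated end was collected. Occupancy was measured by CUT&RUN, in which an antibody brings a nuclease to its target on chromatin and the released fragments are sequenced. The series held 2 biological replicates with a BCL6 antibody (D65C10) and 2 with normal rabbit IgG, in cells of a single line for which no treatment is named. Each BCL6 replicate had its own peak list, and the IgG samples were not analysed here. The design thus gave no second condition, and no difference between conditions could be tested.

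NF-kB is a family of dimeric transcription factors built from p50 (made from NFKB1), p52 (made from NFKB2), RelA, c-Rel and RelB. In resting B cells inhibitor proteins of the IkB family hold the dimers back, and signals from the antigen receptor, CD40 or Toll-like receptors release them. Active NF-kB switches on the genes of several of its own inhibitors, which closes a feedback loop. BCL6 is a zinc finger repressor that germinal centre B cells need, and NFKB1 has been described as a gene that it represses.

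Of the 10 genes, 7 had at least 1 peak in their window and 3 (NFKB2, RELB and TNFAIP3) had none in either list. The 7 genes held 20 peaks, 13 of replicate 1 and 7 of replicate 2. A peak of either list lay within 50 kb of 37.3% of all protein-coding genes. By replicate, 6 of the 10 genes had a peak in replicate 1, against 29.5% of all genes, and 5 had a peak in replicate 2, against 23.3%. Peaks of the lists that shared at least 1 bp were merged, and a region holding a peak of each list was called reproducible. NFKB1, NFKBIA and NFKBIZ had a reproducible region each (3 of 10, Wilson 95% interval 10.8 to 60.3%), against 10.2% of all genes. The interval covers counting error only and is no test against that share. Under a reciprocal overlap of at least 50% the count was 1, and with −log10 q of at least 5 it was 0. The windows of the 10 genes held 1.41 peaks per 100 kb, against 0.563 in the windows of all protein-coding genes. The 10 genes were chosen by name with earlier results of these data known. The counts are therefore a description, and no test was run on them.

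**Figure D1:**
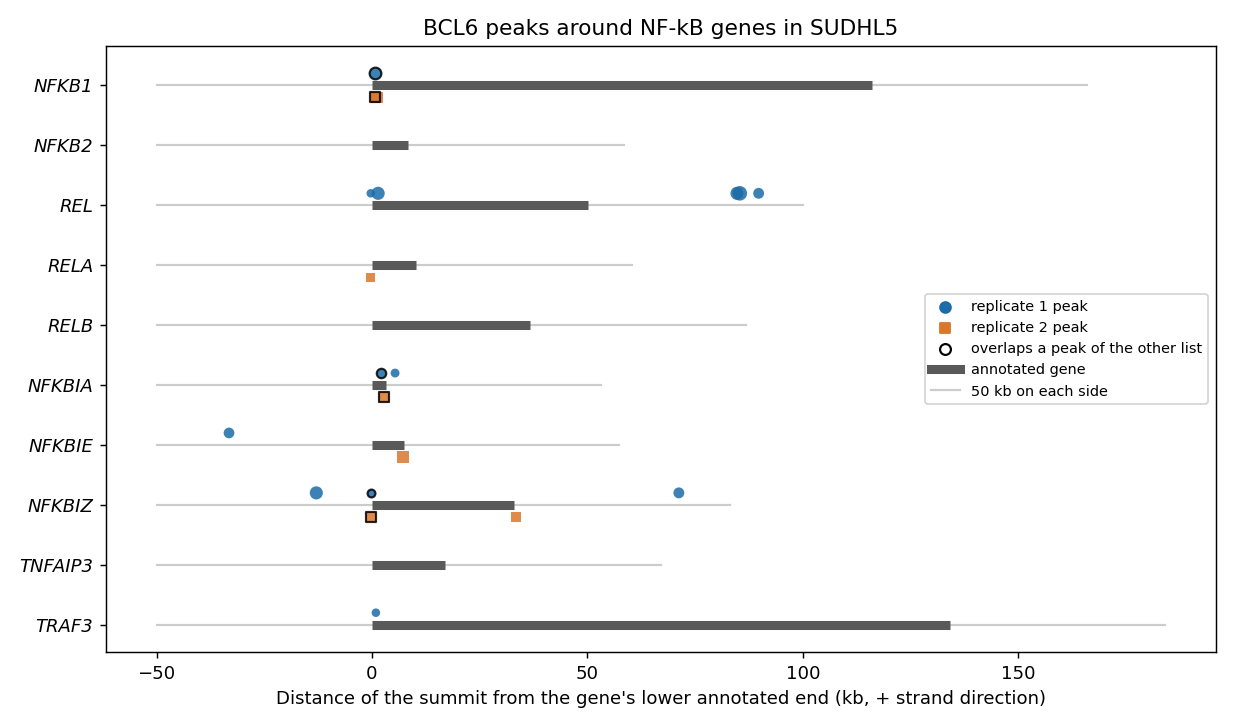
Map of BCL6 summits around the 10 genes, with the distance from the lower annotated end in kb on the horizontal axis. Circles above a gene are replicate 1 peaks, squares below it are replicate 2 peaks, the size of a symbol grows with fold enrichment, and a black outline marks a peak that overlaps a peak of the other list. Of the 20 summits 10 lie within 1 kb of an end of the gene, the REL window holds 5 replicate 1 peaks and no replicate 2 peak, and NFKB2, RELB and TNFAIP3 are empty.

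The promoter sequences of the genes with reproducible regions are shown because they place those regions relative to annotated starts, and that of REL because a replicate 1 peak ended 7 bp before it. They come from RefSeq (GRCh38.p14), hold 250 bases before and 50 from an annotated start, and are written on the gene's own strand. Of the 10 genes, 8 matched the table with 13 start windows. Capitals mark matches to the kappaB motif, the consensus bound by NF-kB dimers, searched on both strands.
NFKB1, first start, chr4:102501109-102501408, + strand: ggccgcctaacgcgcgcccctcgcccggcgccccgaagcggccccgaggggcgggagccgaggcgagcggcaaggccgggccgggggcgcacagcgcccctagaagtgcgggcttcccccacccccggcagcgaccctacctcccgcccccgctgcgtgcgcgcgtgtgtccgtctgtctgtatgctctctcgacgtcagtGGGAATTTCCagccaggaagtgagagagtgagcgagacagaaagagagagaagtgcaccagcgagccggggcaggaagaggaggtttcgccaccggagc
NFKB1, second start, chr4:102501684-102501983, + strand: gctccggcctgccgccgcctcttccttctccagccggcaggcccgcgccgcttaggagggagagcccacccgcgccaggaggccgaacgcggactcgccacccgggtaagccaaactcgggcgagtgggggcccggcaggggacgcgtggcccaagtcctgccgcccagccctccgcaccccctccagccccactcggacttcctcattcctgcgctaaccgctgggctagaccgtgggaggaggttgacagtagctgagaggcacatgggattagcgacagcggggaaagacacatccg
REL, chr2:60881324-60881623, + strand: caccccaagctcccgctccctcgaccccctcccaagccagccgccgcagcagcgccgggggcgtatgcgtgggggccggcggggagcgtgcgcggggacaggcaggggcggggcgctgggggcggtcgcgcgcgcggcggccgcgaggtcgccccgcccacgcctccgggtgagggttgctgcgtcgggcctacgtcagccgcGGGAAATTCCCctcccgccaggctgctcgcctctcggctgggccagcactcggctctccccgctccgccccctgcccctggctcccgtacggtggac
NFKBIA, chr14:35404700-35404999, - strand: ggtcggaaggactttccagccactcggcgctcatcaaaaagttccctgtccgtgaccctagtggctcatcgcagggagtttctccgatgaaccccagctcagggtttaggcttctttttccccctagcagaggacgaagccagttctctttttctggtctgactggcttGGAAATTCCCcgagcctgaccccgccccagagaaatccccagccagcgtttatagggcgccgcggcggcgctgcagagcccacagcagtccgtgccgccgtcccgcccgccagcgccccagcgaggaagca
NFKBIZ, first start, chr3:101827740-101828039, + strand: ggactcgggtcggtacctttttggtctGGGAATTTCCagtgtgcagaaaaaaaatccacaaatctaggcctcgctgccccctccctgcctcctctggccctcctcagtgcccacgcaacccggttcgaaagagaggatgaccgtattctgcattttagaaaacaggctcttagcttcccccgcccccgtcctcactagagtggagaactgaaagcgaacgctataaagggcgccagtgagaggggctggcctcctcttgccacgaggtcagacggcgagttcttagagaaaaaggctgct
The second NFKB1 window lay under a peak of both lists over 240 bp in replicate 1 and 247 bp in replicate 2, and it held no kappaB match. The first NFKBIZ window lay under both over 116 bp and 170 bp. These were the 2 of 13 windows overlapped by a peak, and each was overlapped in both lists. Among the 22132 start windows of protein-coding genes, 6.77% were overlapped by a peak of either list and 1.48% by a peak of each.

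NFKB1, which encodes the p105 precursor of the p50 subunit, carried the best matched region of the set. The region spanned chromosome 4 from 102501737 to 102502342 (hg38), inside the gene near its 5′ end. The authors' peak caller gave it a fold enrichment over local background of 4.01 and a −log10 q of 5.67 in replicate 1. In replicate 2 the values were 3.46 and 3.82. The summit pileup is the number of overlapping fragments, recovered from those values. It was 25 in replicate 1 (exact Poisson 95% interval 16.2 to 36.9) and 23 in replicate 2 (14.6 to 34.5), with overlapping intervals. Read totals are unknown, so the pileups do not compare the amount of BCL6 between replicates. The summits stood 5 bp apart, 87 and 82 bp from the second annotated start. An antisense long noncoding RNA gene, NFKB1-AS1, also spanned both summits. Replicate 2 had a further peak 566 bp from that start, from 102502473 to 102502777, with a fold enrichment of 3.85, a −log10 q of 2.75 and a pileup of 14 (7.65 to 23.5). No replicate 1 peak overlapped it.

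The window of REL, which encodes c-Rel, held the strongest peak of the set, inside the neighbouring gene PUS10. It also showed the widest gap between the replicates, with 5 replicate 1 peaks and no replicate 2 peak. On chromosome 2, a peak from 60880426 to 60881317 reached its summit 277 bp before the annotated start, inside the divergent noncoding gene REL-DT. Its fold enrichment was 2.59, its −log10 q 2.45 and its pileup 27. By fold enrichment it exceeded 9.39% of the replicate 1 peaks. A second peak from 60882882 to 60883566 lay 1428 bp inside the gene, with a fold enrichment of 4.80, a −log10 q of 7.75 and a pileup of 26 (17.0 to 38.1).
The other 3 stood 34.7, 35.3 and 39.7 kb beyond the upper end of REL, inside PUS10, a gene for a pseudouridine synthase. Their fold enrichments were 4.73, 5.63 and 3.59, and their pileups 25, 32 and 27. The peak from 60966862 to 60967144 was the strongest of the whole set, with a −log10 q of 11.7 and more enrichment than 94.3% of the replicate 1 peaks. All 5 REL peaks had a pileup above the replicate 1 median of 23.

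The nearest replicate 2 peak to REL lay 63.7 kb beyond its upper end, also inside PUS10, with a fold enrichment of 5.27 and a pileup of 16. Replicate 1 had a peak close to it, 64.5 kb beyond the end, with 3.33, and the peaks did not overlap. Of the 377 replicate 1 peaks with a −log10 q at least as high as the strongest REL peak, a replicate 2 peak was found over 290 (76.9%, Wilson 95% interval 72.4 to 80.9), and the REL peak was not among them. Among the 200 replicate 1 peaks closest to it in rank of −log10 q, 109 did (54.5%, 47.6 to 61.3). Of the 293 protein-coding genes with 5 or more replicate 1 peaks in their window, 6 (2.05%) had none in replicate 2, REL among them. A lack of a replicate 2 peak says only that the authors' caller listed none there, since coverage between peaks was not available here.

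RELA, which encodes the p65 subunit, had a single weak peak. It lay in replicate 2 on chromosome 11 from 65653178 to 65653598, 404 bp beyond the lower end of the gene. RELA is on the minus strand in the promoter table, so this is its 3′ end, 9719 bp from the nearest annotated start. The fold enrichment was 2.70, the −log10 q 1.52 and the pileup 18 (10.7 to 28.4). By −log10 q it exceeded 3.85% of the replicate 2 peaks. The smallest −log10 q in each list was 1.31.

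No peak was listed near the subunit genes of the non-canonical pathway, NFKB2 (p100 and p52) and RELB. For NFKB2 the nearest summits lay 99.995 kb away in replicate 1 and 101 kb away in replicate 2, inside ACTR1A and SUFU. For RELB they lay 247 kb away in replicate 1, inside BCL3, and 368 kb away in replicate 2. The median protein-coding gene was 158 kb from a replicate 1 summit and 233 kb from a replicate 2 summit. NFKB2 was therefore closer than the median gene to a summit of each list, and RELB farther.

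Among the feedback inhibitors, NFKBIA, which encodes IkB-alpha, had a reproducible region inside its short gene body, on chromosome 14 from 35403209 to 35404303. Replicate 1 gave a fold enrichment of 2.95, a −log10 q of 2.10 and a pileup of 18 (10.7 to 28.4). Replicate 2 gave 2.88, 2.37 and 22 (13.8 to 33.3) for the same measures. The peaks shared 44 bp, which is 8.37% of the replicate 1 peak and 7.18% of the replicate 2 peak, and their summits were 594 bp apart. They were not matched when summits had to lie within 200 bp or when each peak had to cover at least 50% of the other. The replicate 2 summit lay 472 bp inside the annotated start and the replicate 1 summit 1066 bp inside it. A further replicate 1 peak stood 2128 bp before the start, with a fold enrichment of 2.73 and a pileup of 21.

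NFKBIZ, which encodes the nuclear protein IkB-zeta, had a reproducible region at its first annotated start, on chromosome 3 from 101827129 to 101827909. Its pileup was 29 in each replicate (19.4 to 41.6). Its fold enrichment in replicate 1 was 2.35 over a local background of 11.8, and in replicate 2 it was 3.28 over a background of 8.16. By fold enrichment the replicate 1 peak exceeded 3.77% of its list, while by pileup it exceeded 69.2%. The summits stood 42 bp apart, 182 and 224 bp before the start. Both also lay inside NXPE3, a neighbouring gene whose annotation reaches past the NFKBIZ start, so the region cannot be assigned to NFKBIZ alone. The peaks were not matched under a reciprocal overlap of at least 50%, since the shared 351 bp made up 48.3% of the replicate 1 peak and 86.7% of the replicate 2 peak.

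The other NFKBIZ peaks were found in a single list. A replicate 1 peak 12.9 kb below the gene, inside NXPE3, had a fold enrichment of 4.77 and a pileup of 15 (8.40 to 24.7). A replicate 1 peak 38.2 kb above the gene had 3.61 and a pileup of 13. A replicate 2 peak 379 bp beyond the upper end had 3.41, with a pileup of 10 (4.80 to 18.4) and a −log10 q of 1.46.

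NFKBIE, which encodes IkB-epsilon, had its strongest peak in replicate 2 only. That peak lay on chromosome 6 from 44265295 to 44265581, 109 bp inside the upper end of the gene, with a fold enrichment of 4.30, a −log10 q of 8.03 and a pileup of 32 (21.9 to 45.2). It exceeded 85.9% of the replicate 2 peaks by −log10 q, and 375 of the 497 replicate 2 peaks at or above its −log10 q (75.5%, Wilson 95% interval 71.5 to 79.03) had a replicate 1 peak over them. Among the 200 replicate 2 peaks closest to it in rank of −log10 q, 105 did (52.5%, 45.6 to 59.3). The replicate 1 peak in the NFKBIE window was elsewhere, 33.2 kb below the gene inside SLC29A1, a nucleoside transporter gene, with a fold enrichment of 3.52 and a pileup of 18.

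TNFAIP3, which encodes the ubiquitin-editing enzyme A20, was the member farthest from any summit. The nearest lay 1145 kb away in replicate 1 and 1147 kb away in replicate 2, both at ABRACL. No peak of either list was nearer than 1145 kb to 6.56% of all protein-coding genes. The nearest reproducible summit was 6700 kb away.

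TRAF3, the ubiquitin ligase adaptor that keeps the kinase NIK low and so restrains the non-canonical pathway, had a single replicate 1 peak. It lay on chromosome 14 from 102778335 to 102778780, 911 bp inside the annotated start. The fold enrichment was 2.60, the −log10 q 1.89 and the pileup 22 (13.8 to 33.3), which is below the median of replicate 1 in all 3 measures. The nearest replicate 2 summit was 132 kb away, inside RCOR1.

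**Figure D2:**
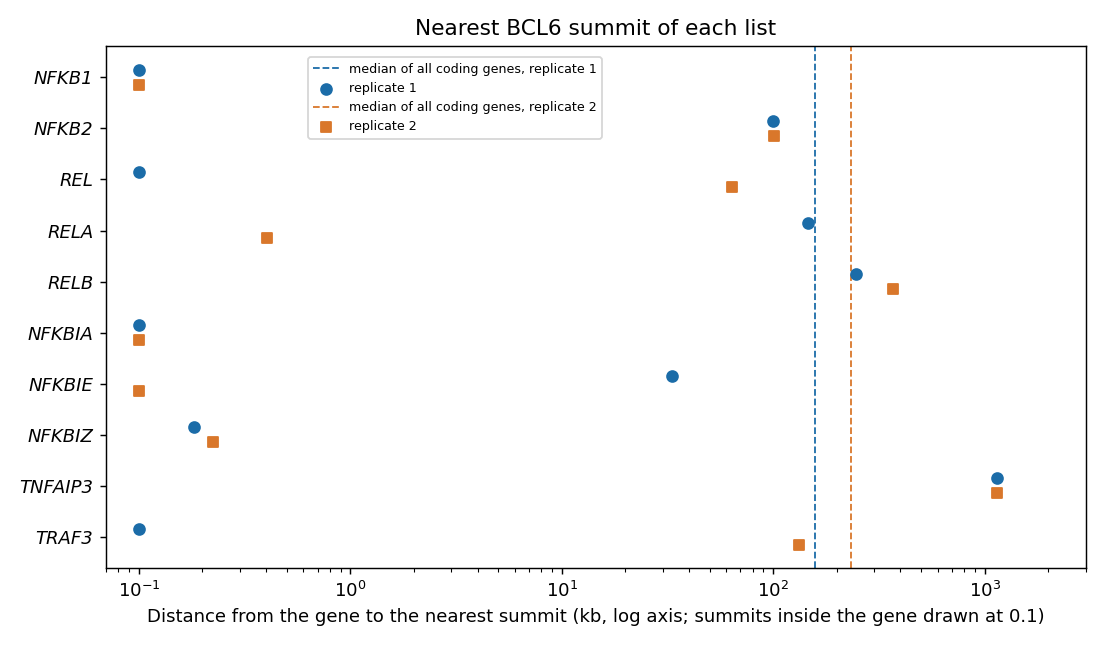
Distance in kb (log axis) from each gene to the nearest summit, with circles for replicate 1 and squares for replicate 2; summits inside a gene are drawn at 0.1. NFKB1, NFKBIA and NFKBIZ have near summits in both lists, REL, RELA, NFKBIE and TRAF3 have a nearer one in a single list, and TNFAIP3 is over 1000 kb from both; dashed lines mark the medians of all protein-coding genes, 158 and 233 kb.

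Subunits, inhibitors and TRAF3 were then set side by side. A peak was present at 3 of 5 subunits, 3 of 4 feedback inhibitors and TRAF3, against 37.3% of all genes. A reproducible region was present at 1 of 5 subunits, 2 of 4 inhibitors and not at TRAF3, against 10.2% of all genes. The subunit windows held 1.25 peaks per 100 kb, the inhibitor windows 2.17 and the TRAF3 window 0.427, against 0.563 over all genes. The peak totals were close, 9 at subunits and 10 at inhibitors, over windows of 721 and 461 kb. REL held 5 of the 9 and NFKBIZ 5 of the 10.
Taking the strongest peak of each gene, the median fold enrichment in replicate 1 was 4.82 over 2 subunits, 3.52 over 3 inhibitors and 2.60 at TRAF3. In replicate 2 it was 3.28 over 2 subunits and 3.41 over 3 inhibitors. The order of subunits and inhibitors thus differed between the replicates, and in replicate 1 the subunit value rests on NFKB1 and REL alone. The REL peak in it, at 5.63, lay inside PUS10. The inhibitor value of 3.52 was that of the NFKBIE peak inside SLC29A1. In replicate 2 the subunit value rests on an NFKB1 peak of 3.85, unmatched in replicate 1, and the RELA peak of 2.70. The inhibitor value of 3.41 was that of an NFKBIZ peak with a pileup of 10 and a −log10 q of 1.46. The medians of the replicates thus rest on different peaks. Peaks reaching a −log10 q of 5 numbered 5 of 6 at subunits and 0 of 6 at inhibitors in replicate 1, against 34.8% of all replicate 1 peaks. In replicate 2 they numbered 0 of 3 at subunits and 1 of 4 at inhibitors, against 32.6%. Of the 5 in replicate 1, 4 were in the REL window, and 3 of these lay inside PUS10, 34.7 to 39.7 kb beyond REL.

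**Figure D3:**
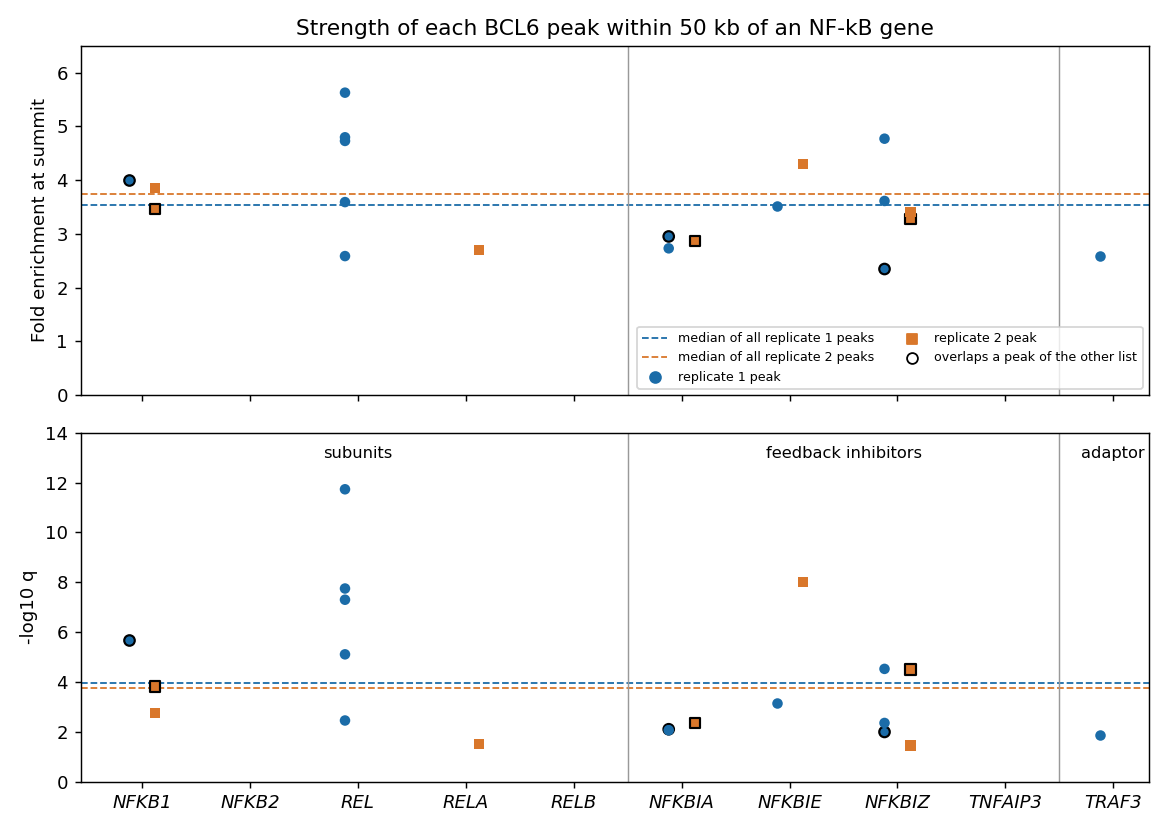
Fold enrichment (upper panel) and −log10 q (lower panel) of each of the 20 peaks, by gene, with circles for replicate 1 and squares for replicate 2 and a black outline where a peak overlaps the other list. Dashed lines are the medians over all peaks of each list, 3.55 and 3.74 for fold enrichment. The replicate 1 peaks in the REL window reach 5.63, at a summit inside PUS10, and the NFKBIE peak of replicate 2 reaches 4.30.

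The peaks at the NF-kB genes were of ordinary strength for these lists. In replicate 1, 7 of 13 exceeded the list's median fold enrichment of 3.55 and 7 of 13 its median pileup of 23. In replicate 2, 2 of 7 exceeded the median fold enrichment of 3.74 and 4 of 7 the median pileup of 21. Taking the lower fold enrichment of the pair of replicates, the NFKB1 region stood at 3.46, NFKBIA at 2.88 and NFKBIZ at 2.35, against a median of 3.30 over the 1311 reproducible regions. Median local backgrounds were 5.44 and 6.03 at these genes in replicates 1 and 2, against 5.90 and 4.63 over all peaks. Of the 20 peaks, 6 overlapped a peak of the other list (30%, Wilson 95% interval 14.5 to 51.9). These 6 form 3 pairs, each counted from both lists. The pooled interval treats paired peaks as separate and is therefore too narrow. By list, this was 3 of 13 in replicate 1 (23.1%, 8.18 to 50.3), against 25.7% of all its peaks, and 3 of 7 in replicate 2 (42.9%, 15.8 to 74.95), against 38.4%.

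**Figure D4:**
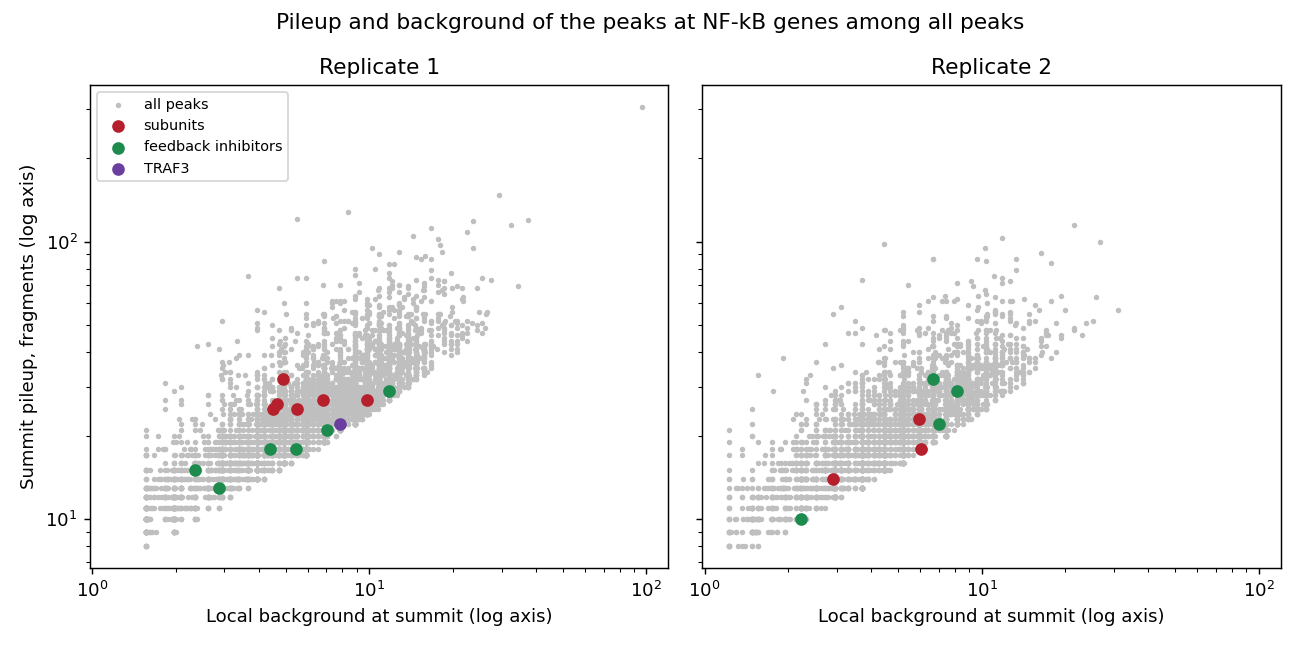
Summit pileup against local background, both on log axes, for all peaks (grey) and for the peaks at subunits, feedback inhibitors and TRAF3 (coloured), in replicate 1 (left) and replicate 2 (right). The coloured points, whose pileups run from 13 to 32 on the left and from 10 to 32 on the right, lie within the cloud of the other peaks and below its highest values.

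The position of the summits relative to the genes was examined next. A summit of either list lay within 1 kb of an annotated end for each of the 7 genes with a peak. Among all protein-coding genes with a peak in their window, this held for 2371 of 7441 (31.9%), and among all protein-coding genes for 11.9%. It lay near the annotated start for NFKB1, REL, NFKBIA, NFKBIZ and TRAF3, and at the 3′ end for RELA. For NFKBIE the upper end is meant. The summit of a reproducible region was that of its peak with the highest −log10 q. Such a summit lay within 1 kb of an end for NFKB1, NFKBIA and NFKBIZ (3 of 10), against 2.64% of all genes. At NFKBIA it was the replicate 2 summit, and the replicate 1 summit stood 1066 bp from the end. At NFKBIZ the summits of both lists also lay inside NXPE3. Of the 20 summits, 10 stood at most 1 kb from the gene's end, 4 more within 2200 bp, and 6 over 10 kb away, 3 of them beside REL, 2 beside NFKBIZ and 1 beside NFKBIE. Over all peaks, 28.5% of the replicate 1 summits and 31.4% of the replicate 2 summits stood at most 1 kb from the end of any protein-coding gene. The protein-coding gene nearest to the summit was the gene itself for 13 of the 20, PUS10 for 3, NXPE3 for 3 and SLC29A1 for 1.

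The kappaB motif was common in the start windows of these genes. It was matched in 9 of 13 windows, at 7 of the 8 genes with windows (all but RELA), against 12.7% of the 22132 windows of protein-coding genes. NFKB1 and NFKBIZ held the match GGGAATTTCC, 49 and 223 bases before their first starts. REL had overlapping matches, GGGAAATTCC and GGAAATTCCC, 47 and 46 bases before its start. GGAAATTCCC, also the match at NFKBIA, is GGGAATTTCC read on the other strand. NFKB1, NFKBIZ, REL and NFKBIA thus held the same site. Overlapping matches were each counted, giving 14 in all.
The NFKBIZ match was the only 1 of the 14 inside a peak. Its middle lay 36.5 bp from the replicate 1 summit and 5.5 bp from the replicate 2 summit. The NFKB1 match lay 707 and 702 bp from the nearest summits, and the NFKBIA match, GGAAATTCCC, 1142.5 and 548.5 bp. The TNFAIP3 window held GGAAAGTCCC and GGAAATCCCC and lay far from any summit.

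The same windows were searched for letters of the BCL6 recognition core, and both shares were near those of all windows. TTCCTNGAA, searched on both strands, was in 0 of 13, against 1.29% of all windows. The looser TTCNNNGAA, which reads the same on both strands and covers every TTCCTNGAA match, was in 1 of 13, a RELA window, against 6.79%. Only 2 of the 13 windows were overlapped by a peak. The windows have 300 bases each and do not cover the whole of any peak, so sites elsewhere in the peaks were not searched. The counts therefore do not show whether the peaks hold the motif. Median GC content was 70% in the 13 windows and 62.3% in all windows.

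Other genes of the pathway were followed in 4 lists of 67 genes, and their difference from the 10 genes was not tested. A peak of either list lay within 50 kb of 29 of 67 (43.3%), against 37.3% of all genes. A reproducible region lay within 50 kb of 8 of 67 (11.9%, Wilson 95% interval 6.18 to 21.8), against 10.2% of all genes. Reproducible regions were present at 2 of 12 other inhibitors, 1 of 14 receptors and ligands, 2 of 21 genes of the signalling chain to the IkB kinase and 3 of 20 target genes.
Among the inhibitors these were RNF11, which encodes a partner of A20, and OTUD7B, which encodes the deubiquitinase Cezanne. The RNF11 region lay 1.29 kb outside the gene and had fold enrichments of 16.3 and 8.88 in replicates 1 and 2, far above the values at the 10 genes. OTUD7B had 2 regions, with fold enrichments of 5.08 and 3.40 inside the gene and of 3.24 and 3.62 at 49.4 kb outside it, where H2AC21 was the nearest gene. Near TNFRSF13C, which encodes the BAFF receptor, the region stood 3.85 kb outside with 6.93 and 5.59, and the gene nearest to its summit was SHISA8.

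In the signalling chain, the ubiquitin ligase genes BIRC2 and BIRC3 are neighbours and shared 2 regions, both nearest to BIRC3. The region 1.01 kb outside BIRC3 had fold enrichments of 3.58 and 4.54, and the region 9.69 kb outside it had 5.43 and 3.09. Among target genes, PLEK, which encodes pleckstrin, had a region 30.2 kb outside with 10.9 and 7.86. CFLAR, which encodes the caspase-8 inhibitor c-FLIP, had 2 regions with 10.1 and 6.97 and with 5.40 and 5.32, and both were nearest to CASP10. IL10, which encodes an anti-inflammatory cytokine, had a region 61 bp inside the gene with 2.69 and 3.92.

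**Figure D5:**
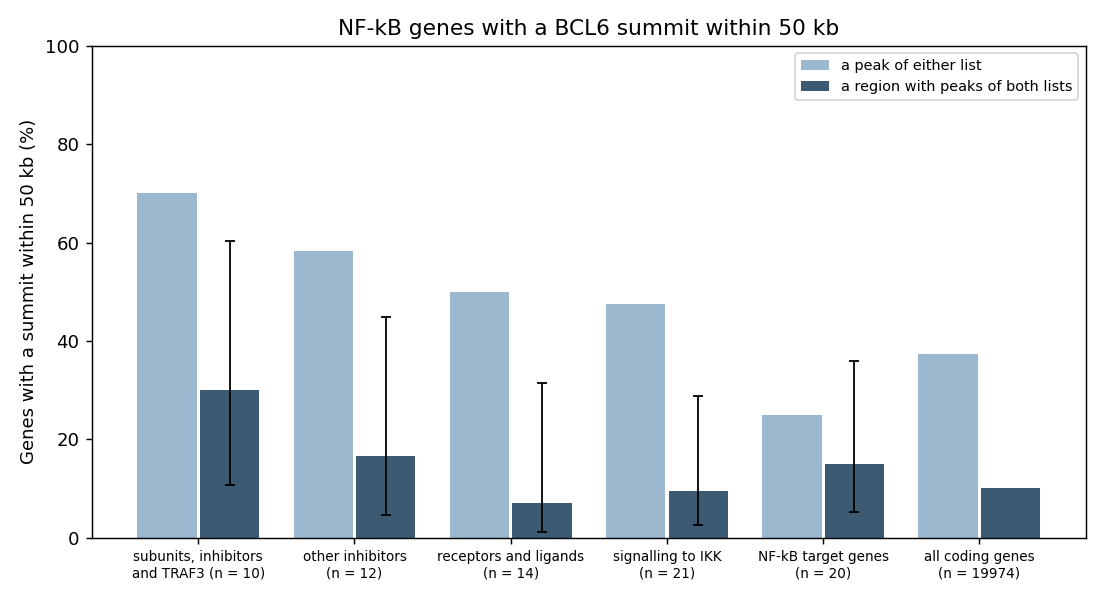
Percentage of genes with a summit within 50 kb, for the subunits, inhibitors and TRAF3 together, 4 lists of other pathway genes and all protein-coding genes. Light bars count a peak of either list and dark bars a region with peaks of both lists, with Wilson 95% intervals on the dark bars of the lists. The 10 genes stand at 70% and 30%, and all protein-coding genes at 37.3% and 10.2%. Genes and lists were chosen with earlier results of these data known, and no test was run.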

How the data were processed

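Per the submitters' processing notes, the tools were MACS2, Bowtie2, SAMtools, Picard, deepTools, bedtools, cutadapt and FastQC, with build hg38. Tool versions, settings and the caller's control were not given in the sources used here. As peaks, the authors deposited a narrowPeak list for each BCL6 sample, not pooled. Libraries had 14 PCR cycles, per the labels' protocols. The deposited columns used were fold enrichment (a ratio over local background) and −log10 of p and q. The deposited score column equals 10 times −log10 q, cut to a whole number, in all 5237 and 3536 rows and was not used.

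Read totals are unknown. The summit pileup n and background b were solved from fold = (n + 1) / (b + 1) and the Poisson p. All 5230 and 3529 peaks on chromosomes 1 to 22 and X were recovered within 0.001 on the −log10 scale. The recovery, merging and window counts were tested on simulated data. Intervals cover counting error only. Genes and promoters came from RefSeq GRCh38.p14, the assembly that hg38 denotes. Exons and introns were not separated. Python 3.11.15, numpy 2.4.6, pandas 2.3.3 and scipy 1.17.1 were used.

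The genes named are the 10 members, the protein-coding gene nearest each summit, and up to 4 genes of each other list with the largest smaller fold enrichment. The noncoding genes over summits were named after their values were seen. Members and lists were chosen with earlier results of these data known. The alternatives were other windows, assignment to the nearest gene, −log10 q of at least 5 or 10, stricter overlap, and either list alone.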

Additional observations from a re-analysis of the deposited data

How the results depend on the processing

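The 8 summary results were computed under 11 alternatives, giving 85 values. Of these, 53 stayed within the limits set and 32 did not. The limits were 1.5 times a count, 1 SD between replicates, or the 95% interval of a share. They are rough, since the interval counts each matched pair from both lists and the SD compares different peaks. Within the limits, the share of peaks matched went from the reported 30% to 20% with summits within 200 bp, 42.9% at 10 kb and 50% for the gene body. Members with a reproducible region numbered 2 in place of 3 with summits within 200 bp, for the gene body and for the nearest gene. With −log10 q of at least 5, 3 members kept a peak, and 0 members, 0 subunits and 0 inhibitors had a reproducible region (0 regions, 0% of peaks matched). With at least 10, 1 member kept a peak, again with 0 members, 0 subunits, 0 inhibitors, 0 regions and 0% matched. Reciprocal overlap of at least 50% left 1 region at 1 member, 0 inhibitors and 10% of peaks matched. Inhibitors with a reproducible region numbered 1 with summits within 200 bp, 1 for the gene body and 1 for the nearest gene. The strongest peak per gene, as the mean of the replicates' medians, was 4.05 ± 1.09 for subunits and 3.47 ± 0.0805 for inhibitors (SD, n = 2). The subunit medians came from NFKB1 and REL in replicate 1 and from NFKB1 and RELA in replicate 2. The inhibitor median was an NFKBIE peak in replicate 1 and an NFKBIZ peak in replicate 2. Neither SD therefore measures the replicate spread at the same peaks. For subunits the strongest peak per gene was 5.63 with −log10 q of at least 10. For inhibitors it was 4.30 with −log10 q of at least 5, 3.27 for the gene body, 3.35 for the nearest gene, and 3.03, 3.64 and 3.97 with windows of 10, 25 and 100 kb.

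Without either replicate all peaks of the other list count, with no replicate check: 5 to 6 members with a peak, 2 subunits, 3 inhibitors and 7 to 13 peaks. The causes were not tested, apart from fewer or more peaks entering by construction. No paired analysis was possible because the IgG samples were not analysed here and a single group remained. Pileups of 10 to 32 carry wide counting intervals, so a missing peak in a list does not show that BCL6 was absent.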

Other observations

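The peak-free stretch around TNFAIP3 on chromosome 6 ran over 4778 kb, between a summit nearest to SGK1 and a summit nearest to ABRACL, and held 26 protein-coding genes. Around RELB on chromosome 19 it ran over 651 kb with 22 protein-coding genes, and around NFKB2 on chromosome 10 over 256 kb with 6.

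Besides REL, 5 genes had at least 5 replicate 1 peaks and no replicate 2 peak in their windows. They were ASAP1, DPM2, EEIG1, SMAD9 and IL4R, named after their values were seen. DPM2 and EEIG1 are neighbours on chromosome 9 and share peaks. IL4R, which encodes the interleukin 4 receptor alpha chain, and SMAD9 had 6 replicate 1 peaks each.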
